A study of Bos taurus with 7 samples.

Results

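The 4 bovine members of the miR-15 and miR-16 family, bta-miR-15a, bta-miR-16a, bta-miR-15b and bta-miR-16b, were followed in cow plasma through every non-control probe that carried one of these names, 4 of the 744 miRNAs on the array. The samples were plasma miRNA preparations from 7 Japanese-Black cows (Bos taurus), each inseminated at a controlled estrus and bled on day 21, counted from insemination as day 0. Pregnant cows numbered 1 to 4 in the labels gave 4 arrays, and non-pregnant cows numbered 1, 3 and 4 gave 3 arrays, so that the comparison asks whether circulating levels differ with early pregnancy. All 7 cows were inseminated, so the non-pregnant group is one of inseminated cows that did not hold a pregnancy by day 21. The separate cow numbers within a group were read as separate animals, and animals are named here by group and number. Whether a number found in both groups is the same animal is not stated, and the count of 7 cows takes them as different. A miRNA level in plasma does not tell fewer releasing cells from less RNA per cell.

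miRNAs of this family are short RNAs cut from hairpins that lie in closely spaced pairs, a miR-15 beside a miR-16, within one primary transcript. Members share the same seed, the stretch near the 5′ end that pairs with target mRNAs, and are known for repressing cell cycle and survival genes such as BCL2 and the cyclins. They are abundant in blood cells, and miR-16 is often used as a reference in plasma measurements, where it is also known to follow the breakdown of erythrocytes.

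The bovine genome carries 2 such pairs. On ARS-UCD2.0 (RefSeq) MIR15A lies at chr12:19501061-19501143 and MIR16A at chr12:19500915-19501003, with 57 bases between the hairpins, both inside LOC100847818, a transcribed pseudogene. MIR15B lies at chr1:107073765-107073862 and MIR16B at chr1:107073622-107073714, with 50 bases between them, both inside the protein-coding gene SMC4, which encodes a condensin subunit. The array design uses the older assembly UMD 3.1, so the probe positions below are on that build and are not converted. Mature miRNA sequences are not used here, and the letters shown are those of the array probes and of the stretch each probe reads.

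All 9 member probes are printed 5′ to 3′ because the signal of a member went with the length of its probes. Capitals mark the bases by which a probe is longer than the shortest probe of the same miRNA. The design writes each interval with its higher position first, and the strand of the miRNAs was not established. The mapped interval in the design spans 1 base fewer than the letters.
miR-15a, 18 bases, chr12:19596363-19596379: acaaaccattatgtgctg
miR-15a, 19 bases, chr12:19596362-19596379: acaaaccattatgtgctgC
miR-16a, 17 bases, chr12:19596219-19596234: caccaatatttacgtgc
miR-16a, 18 bases, chr12:19596218-19596234: caccaatatttacgtgcT
miR-15b, 19 bases, chr1:107923402-107923419: tgtaaaccatgatgtgctg
miR-15b, 20 bases, chr1:107923401-107923419: tgtaaaccatgatgtgctgC
miR-16b, 16 bases, chr1:107923258-107923272: gccaatatttacgtgc
miR-16b, 17 bases, chr1:107923257-107923272: gccaatatttacgtgcT
miR-16b, 18 bases, chr1:107923256-107923272: gccaatatttacgtgcTG

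The stretches that the longest probes read, written as the complement of the probe, are set beside those of 3 relatives on the same array whose targets hold the same opening letters. Capitals run from the start of the target through the shared AGCA.
miR-15a: GCAGCAcataatggtttgt
miR-15b: GCAGCAcatcatggtttaca
miR-497: GCAGCAcactgtggtttgta
miR-424-5p: GCAGCAattcatgttttga
miR-16b: CAGCAcgtaaatattggc
miR-16a: AGCAcgtaaatattggtg
miR-195: AGCAcagaaatattggca

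From the shared AGCA onward, miR-16a and miR-16b were equal at 16 of 17 bases, and miR-16b and miR-195 at 15 of 17. miR-15a was equal to miR-15b at 14 of 17 bases, and to miR-497 also at 14 of 17. Probes this alike can bind each other's miRNA, and the members are therefore uncertain as separate measurements. Likeness between a miR-15 and a miR-16 was lower, with 12 of 17 bases equal within the chromosome 12 pair, miR-15a and miR-16a. It was 10 of 17 within the chromosome 1 pair, miR-15b and miR-16b, and 11 of 17 between miR-15a and miR-16b.

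Signal within the family depended on how far a probe reached. A spot was called well above background by the scanner software, and the counts below run over the spots of all 7 arrays that were not marked as outliers. For miR-15a, 5 of 67 spots of the 18-base probe and 55 of 64 spots of the 19-base probe were well above background. For miR-15b the counts were 0 of 63 at 19 bases and 41 of 65 at 20 bases. For miR-16b they were 0 of 49 at 16 bases, 0 of 47 at 17 bases and 36 of 42 at 18 bases. A single added base thus separated a probe with almost no bright spot from one bright on most arrays in each of these 3 miRNAs.

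miR-16a had no probe of that reach. Its 17-base probe gave 0 of 69 spots well above background, and its 18-base probe, whose target opens at AGCA, gave 1 of 66. The 17-base probe of miR-16b also opens at AGCA, and it too was silent, with mean signals of -3.90 to 1.64 over the arrays, while the 18-base probe of the same miRNA, which reaches CAGCA, ran from 4.05 to 37.0. The dim values of miR-16a were therefore measured at a reach where the detected miR-16b was not seen either, and what a longer miR-16a probe would have shown was not tested.

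**Figure D1:**
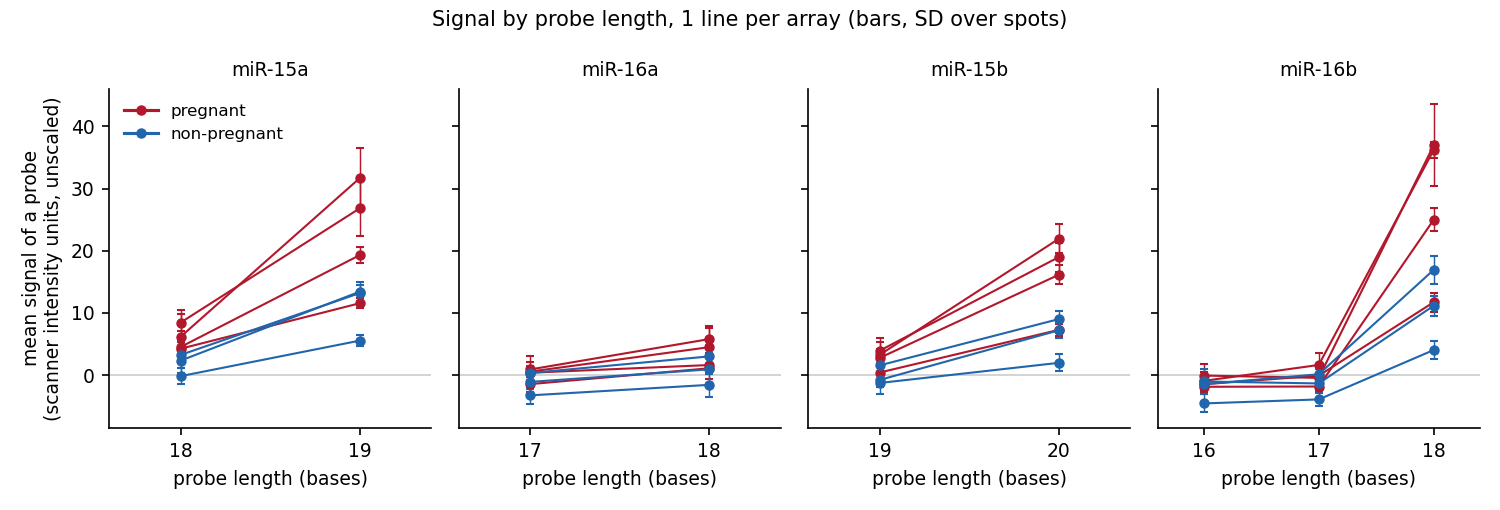
Mean background-subtracted signal (scanner intensity units, not scaled between arrays) against probe length in bases for the 4 members; each line is 1 array (red, pregnant; blue, non-pregnant) and bars are the SD over the spots of a probe. In miR-15a, miR-15b and miR-16b the last added base lifts the signal on each of the 7 arrays, and in miR-16a the highest mean is 5.80.

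The pattern was common on the array but not general. Among the 124 miRNAs detected on at least 1 array, the longest probe was the brightest in 464 of 585 pairs of a miRNA and an array that detected it (79.3%), against 19 of 19 for the members. The longest probe passed and the shortest never passed on any array in 33 of these 124 miRNAs (26.6%), against 3 of the 4 members, where a probe passed if over 50% of its spots were well above background.

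The arrays differed in brightness. The summed signal of detected miRNAs ran from 12009.6 in non-pregnant 1, which detected 45 miRNAs, to 101000.5 in pregnant 3, which detected 101. The other 5 arrays detected 81 to 93. The single slide held the pregnant cows in its row 1 and the non-pregnant cows in its row 2, and these cannot be told apart. Negative control spots averaged 1.76 to 2.85 intensity units per array with an SD of 1.40 to 1.72, and 0 of 403 to 423 per array were well above background.

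By the software's own call, miR-15a, miR-15b and miR-16b were each detected on all 4 arrays of pregnant cows and on 2 of the 3 others, the exception being non-pregnant 1. For comparison, 84 of the 744 miRNAs (11.3%) were detected on 4 or more arrays and 124 (16.7%) on at least 1. miR-16a was detected in pregnant 2 alone, with a software signal per miRNA of 3.85; elsewhere it stood at 0.1, the value the software enters for a miRNA not detected. Together the members made up 0.213% of the summed signal in pregnant 4 and 0.0305% in non-pregnant 3, and none of it in non-pregnant 1. They were dim miRNAs in these plasma samples.

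In the chromosome 12 pair, the longest probe of miR-15a gave unscaled signals of 11.6, 26.8, 19.3 and 31.7 in pregnant 1 to 4 and of 5.55, 13.2 and 13.4 in non-pregnant 1, 3 and 4. Pregnant 2, 3 and 4 lay above all 3 non-pregnant cows, and pregnant 1 lay among them. The group means were 22.3 ± 8.80 (SD, n = 4) and 10.7 ± 4.48 (SD, n = 3), a ratio of 2.08, which was 2.42 without pregnant 1 and 1.68 without non-pregnant 1. The software's signal for miR-15a was 7.67, 23.4, 12.8 and 21.0 in the pregnant cows and 8.76 and 8.90 in non-pregnant 3 and 4. Pregnant 2 rather than pregnant 4 was at the top. This signal kept the same proportion to the longest probe on every detecting array except pregnant 2, where it was higher. In pregnant 2, 4 of 9 spots of the 18-base probe were well above background, the most of any array. The longest miR-16a probe gave 1.63, 5.80, 1.11 and 4.50 in pregnant cows and -1.56, 3.01 and 0.926 in non-pregnant cows. These values overlapped between groups and with the negative control spots. Neither group had a miR-16a probe above background, and no fold is given.

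In the chromosome 1 pair, the longest probe of miR-15b gave 7.28, 19.0, 16.1 and 21.9 in pregnant 1 to 4 and 1.98, 9.01 and 7.21 in non-pregnant 1, 3 and 4. Here too the same 3 pregnant cows lay above every non-pregnant cow, with pregnant 1 overlapping. The means were 16.1 ± 6.32 (SD, n = 4) and 6.06 ± 3.65 (SD, n = 3), a ratio of 2.65, or 3.13 without pregnant 1. The value in non-pregnant 1 was below the mean of 2.85 of its own negative controls, and without that cow the ratio was 1.98. On the software's scale miR-15b stood at 4.83, 12.6, 10.7 and 14.5 in pregnant 1 to 4 and at 5.98 and 4.78 in non-pregnant 3 and 4, in the same order as the probe. Most spots of this probe were well above background on 3 of the 4 pregnant arrays and on 1 of the 3 non-pregnant ones.

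The longest miR-16b probe gave 11.7, 36.2, 25.0 and 37.0 in pregnant 1 to 4 and 4.05, 16.9 and 11.2 in non-pregnant 1, 3 and 4. Pregnant 1 fell between non-pregnant 3 and 4, and the other 3 pregnant cows lay above all non-pregnant cows. The means were 27.5 ± 11.8 (SD, n = 4) and 10.7 ± 6.46 (SD, n = 3), a ratio of 2.56, which moved to 3.05 without pregnant 1 and 1.96 without non-pregnant 1. Its software signal was 4.67, 14.4, 9.96 and 14.7 in pregnant 1 to 4 and 6.75 and 4.45 in non-pregnant 3 and 4, again with pregnant 1 between the latter. In all 3 detected members the order of the pregnant cows was the same, with pregnant 4 highest, then 2, 3 and 1, although pregnant 4 and 2 differed in miR-16b by less than the SD of 6.55 over the spots of that probe in pregnant 4.

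**Figure D2:**
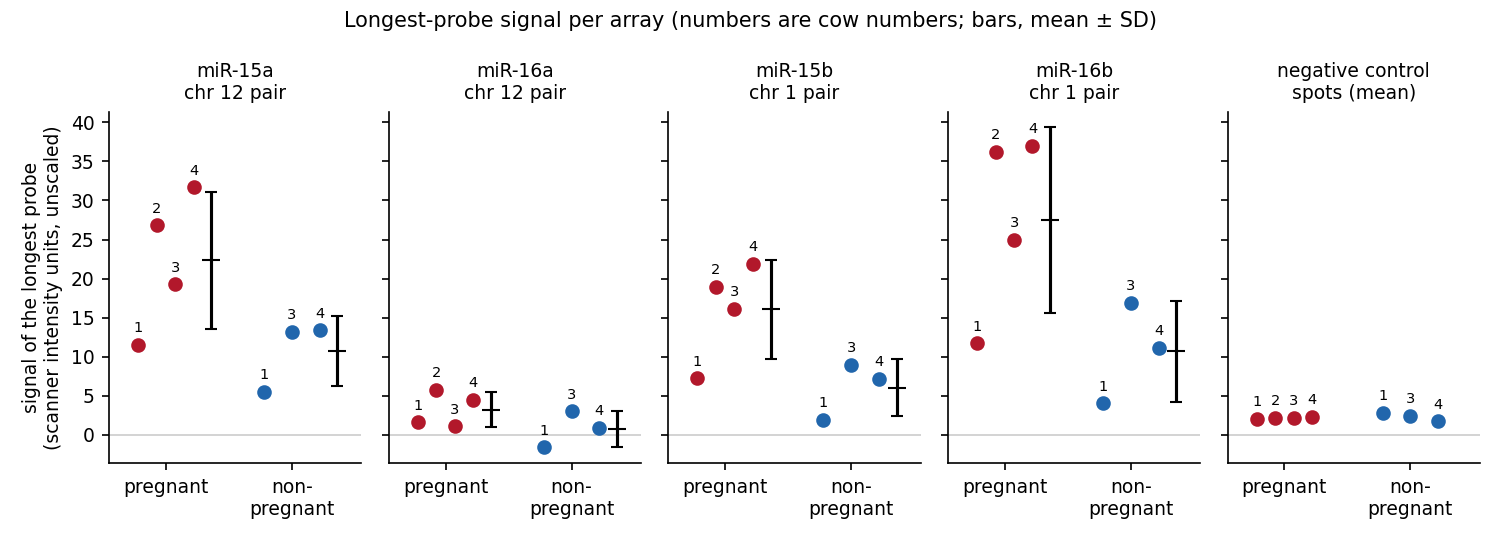
Unscaled signal of the longest probe (scanner intensity units) for each member and the mean of the negative control spots, by group; each dot is 1 array with its cow number, and black bars are the mean ± SD over 4 pregnant or 3 non-pregnant arrays. In miR-15a, miR-15b and miR-16b pregnant 2, 3 and 4 lie above every non-pregnant cow while pregnant 1 does not, and miR-16a stays near the control spots.

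The group difference did not pass the test for any member. In the main analysis each array was divided by its 75th percentile over 57 probes detected on all arrays, low values were set to a floor of -6.36 (log2), the probes of a miRNA were averaged, and 88 miRNAs detected on at least 3 arrays were tested with limma. No miRNA passed a Benjamini-Hochberg threshold of 0.05 (0 of 88, 0%), and 1 of 88 (1.14%) had an unadjusted p under it. The pregnant minus non-pregnant difference of miR-15a was 0.51 (log2; standard error 0.44; 95% interval -0.56 to 1.57; adjusted p = 0.763, limma). miR-15b differed by 0.49 (standard error 0.31; -0.26 to 1.24; adjusted p = 0.743, limma) and miR-16b by 0.38 (standard error 0.25; -0.23 to 1.00; adjusted p = 0.743, limma). The intervals include 0 and also include differences of log2 1 or more for miR-15a and miR-15b, so these arrays leave the size undetermined. All 3 were positive, as were 62 of the 88 tested miRNAs (70.5%), and the median of the 3 was 0.49 against a median of 0.18 over all 88.

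Scaled levels ordered the cows differently from the raw signals. The main level of miR-16b was -6.14, -5.44, -6.25 and -5.40 in pregnant 1 to 4 and -6.04, -6.23 and -6.31 in non-pregnant 1, 3 and 4. Pregnant 2 and 4 stood apart at the top, and non-pregnant 1 came next although the software did not call miR-16b detected there. The divisors were 442 and 415 in pregnant 2 and 4, 1645 in pregnant 3 and 172 in non-pregnant 1. miR-15a had the same 3 cows at the top, with -4.88 in pregnant 2, -4.89 in pregnant 4 and -5.66 in non-pregnant 1, while pregnant 3 was at the floor. Of the miR-15b levels, 5 of 7 were at the floor, and those above it were -5.45 in pregnant 2 and -5.30 in pregnant 4.

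Averaging the probes shrank the differences of the members, since the shorter probes mostly stood at the floor. With the longest probe alone, scaled in the same way, the difference was 0.78 for miR-15a, 0.98 for miR-15b and 1.15 for miR-16b, and the limma adjusted p was 0.758, 0.682 and 0.682. The median of all 88 miRNAs moved to 0.20. The ratio of the longest-probe difference to the main one was largest in miR-16b, which has 3 probes of which 2 were silent. None of the 88 miRNAs passed, and 1 (1.14%) had an unadjusted p under 0.05.

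Without scaling between arrays the longest probes differed by 0.86 (standard error 0.40) for miR-15a, 0.83 (0.34) for miR-15b and 1.09 (0.49) for miR-16b, with an adjusted p of 0.392 for each (limma). Of the 88 miRNAs 71 (80.7%) had a positive difference, with a median of 0.25, and 9 (10.2%) had an unadjusted p under 0.05. Averaged over all probes of a miRNA, unscaled differences were positive in 76 of 88 (86.4%) and the members stood at 0.43, 0.42 and 0.36 (adjusted p = 0.392, limma). Every pregnant cow lay above every non-pregnant cow in 8 of 88 miRNAs (9.09%) and in none of the members. Leaving out pregnant 1 brought the difference of miR-15b to 1.12 (adjusted p = 0.0174, limma), and it was then 1 of 6 miRNAs past the threshold (6.82%), while miR-15a at 1.15 (adjusted p = 0.0911) and miR-16b at 1.46 (adjusted p = 0.0860) were not. miR-15b stood at the unscaled floor of 3.09 in non-pregnant 1 and 4, so the small spread behind that p depends on the floor. Without pregnant 1 the groups no longer overlapped in 19 of 88 miRNAs (21.6%), all 3 detected members among them.

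**Figure D3:**
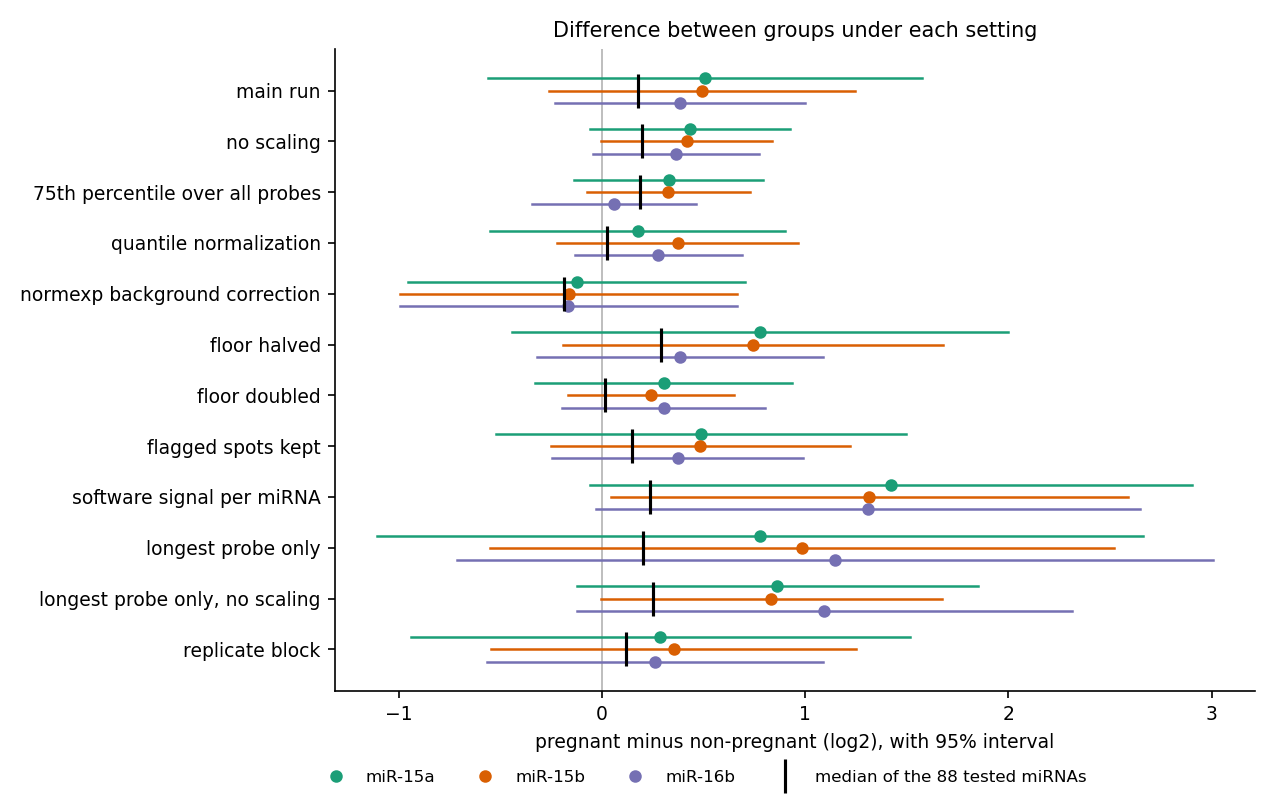
Pregnant minus non-pregnant difference (log2) of the 3 tested members under each analysis setting, as points with unadjusted 95% intervals from limma; black ticks are the median over the 88 tested miRNAs under that setting. The points lie above 0 except under normexp background correction, where they are -0.13, -0.16 and -0.17 and the median of all miRNAs is -0.19.

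The detected members moved together from cow to cow. Over the 7 arrays the main levels of miR-15a and miR-16b correlated with a Pearson r of 0.975 (exact permutation p = 0.00278) and a Spearman rho of 0.857 (exact permutation p = 0.0238). Without pregnant 2 and 4, the arrays farthest from the median, r was 0.832. Among the arrays left, non-pregnant 1 was highest for both miR-15a (-5.66) and miR-16b (-6.04), although neither was called detected there. miR-15b was at the floor on too many arrays for a scaled comparison, and unscaled levels were used for all 3 pairs. For miR-15b with miR-16b, r was 0.949 (exact permutation p = 0.00119, adjusted 0.00208 over 3 pairs) and rho 0.964 (exact permutation p = 0.00238, adjusted 0.00714), with r at 0.851 after the same 2 arrays were left out. For miR-15a with miR-16b, r was 0.969 (adjusted exact permutation p = 0.00208) and rho 0.893 (adjusted exact permutation p = 0.0143), and for miR-15a with miR-15b, r was 0.947 (adjusted exact permutation p = 0.00238) and rho 0.889 (adjusted exact permutation p = 0.0143). Unscaled levels share the brightness of the array. Main levels share its divisor, 172 in non-pregnant 1 to 1645 in pregnant 3, and the floor. Permuting the pairings does not keep these shared terms, so the p-values do not account for them. The median r over 63 candidate miRNAs on the unscaled levels was 0.05 for miR-15b, 0.21 for miR-15a and 0.24 for miR-16b. It was not taken on the main levels. The partner was not the closest by r: miR-16b was 4th for miR-15b and miR-15b 3rd for miR-16b, and miR-15a and miR-16b were each 2nd for the other.

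The chromosome 1 pair held an almost fixed ratio. On the 6 arrays that detected both, the log2 ratio of miR-16b to miR-15b, taken within an array and so free of the scaling, had an SD of 0.135, while each alone had an SD of 0.771 and 0.722. Detection here is the software's call. Of the spots of the longest miR-15b probe, only 3 of 8 in pregnant 1 and 1 of 8 in non-pregnant 4 were well above background. Centred on its mean, the ratio was -0.07, 0.17, -0.13 and -0.0037 in pregnant 1 to 4 and 0.15 and -0.13 in non-pregnant 3 and 4. Its mean was -0.0064 in pregnant and 0.013 in non-pregnant cows, a difference far smaller than the spread. The standard error that the spots give a single ratio was 0.060 to 0.119. Of 69 candidate miRNAs, miR-15b had the steadiest ratio to miR-16b and miR-16b the steadiest ratio to miR-15b, and the median SD over candidates was 1.01 and 0.946. With 1 array left out the SD of 0.135 ran from 0.116 to 0.150. With the mean of the negative controls subtracted, the SD was 0.161 and ran from 0.117 to 0.180.

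Across the pairs the SD of the ratio was larger over the 6 arrays, a difference that was not tested. It was 0.268 for miR-16b over miR-15a and 0.210 for miR-15b over miR-15a, whose median SD over candidates was 0.870. Leaving out non-pregnant 4 brought these to 0.165 and 0.150, close to the range of the chromosome 1 pair. With the mean of the negative controls subtracted, the 2 SDs were 0.304 and 0.277. Without non-pregnant 4 they were then 0.185 and 0.211, above the subtracted range of the chromosome 1 pair, 0.117 to 0.180. miR-15a was 4th of 69 in steadiness for both miR-15b and miR-16b, while for miR-15a itself miR-15b was 5th and miR-16b 8th, and miR-29c was steadiest with an SD of 0.165. In non-pregnant 4 miR-16b over miR-15a stood at -0.46 and miR-15b over miR-15a at -0.33 from their means, the lowest of the 6 arrays. The chromosome 12 pair could not be compared in the same way, because miR-16a was above the floor on 1 array only, and so agreement within one genomic pair cannot be set against agreement within the other.

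**Figure D4:**
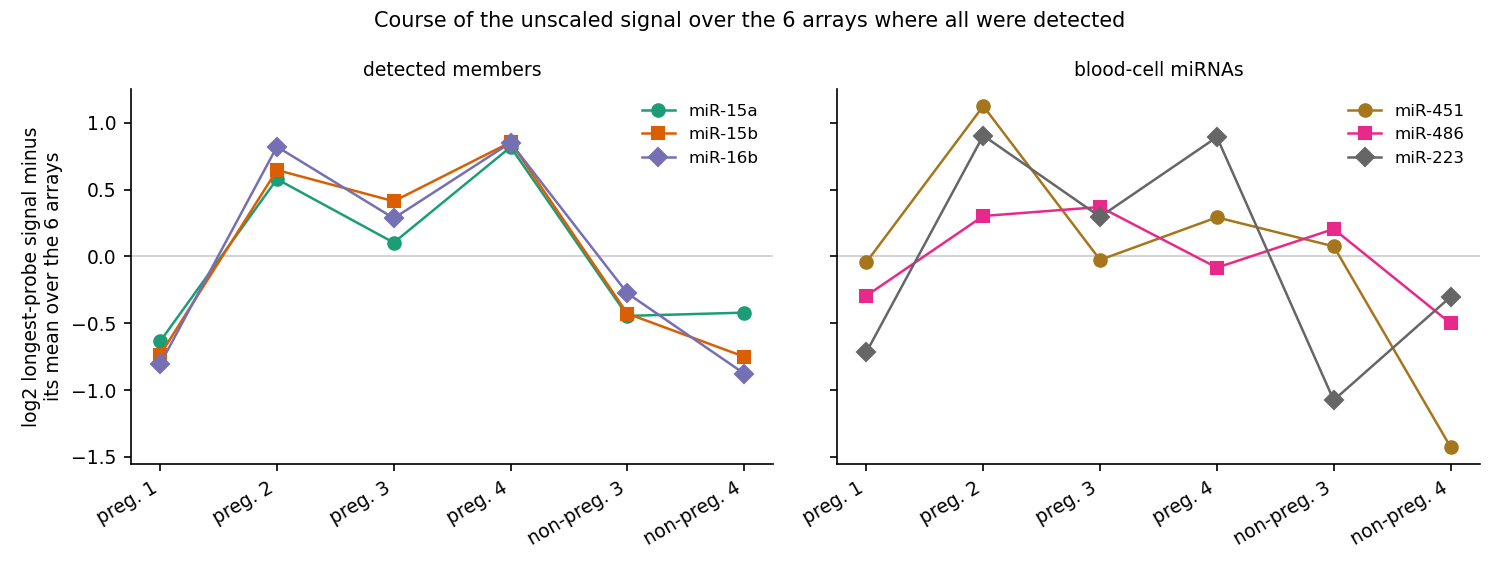
Unscaled log2 signal of the longest probe minus its mean over the 6 arrays that detected all of the miRNAs shown (non-pregnant 1 is left out); lines join the values of 1 miRNA and the arrays have no order. The 3 members run close together, with miR-16b and miR-15b at most 0.17 apart, while miR-451, miR-486 and miR-223 have ratios to miR-16b with SDs of 0.549, 0.597 and 0.444. On the 4 pregnant arrays miR-223 also runs close to miR-16b, at -0.72, 0.90, 0.30 and 0.89 against -0.81, 0.82, 0.29 and 0.85. It departs in non-pregnant 3 and 4, at -1.08 and -0.30 against -0.28 and -0.88.

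Relatives with all or part of the family's seed, or from the same transcripts as such miRNAs, were mostly silent. miR-195 and miR-497, a miR-16-like and miR-15-like pair on chromosome 19 inside the lncRNA LOC107131510, and miR-424-5p, of the X chromosome, were detected on 0 of 7 arrays. The 20-base probe of miR-497 and the 19-base probe of miR-424-5p reach as far as the bright probes of miR-15a and miR-15b, and 0 of 67 and 0 of 68 of their spots were well above background. miR-195, like miR-16a, has no probe past AGCA, and 0 of 63 spots of its 18-base probe were well above background. miR-424-3p and miR-503-5p were detected on 0 arrays. Of miR-103 and miR-107, which share part of the seed, miR-103 was detected on 0 arrays. miR-107 was detected in pregnant 4 only, with a software signal of 4.57. miR-1271, listed with these, lies on chromosome 7, and its probe target holds no AGCA. It was detected on 0 arrays. miR-503-3p, the opposite arm of a hairpin beside MIR424, was detected on 6 arrays, 4 pregnant and 2 non-pregnant. Its longest probe gave 11.1, 8.54, 22.9 and 8.25 in pregnant 1 to 4 and 2.20, 15.4 and 17.1 in non-pregnant cows, an order unlike that of the members, with pregnant 3 highest and the groups overlapping.

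The miRNAs whose centred main level lay closest to a member's over the 7 arrays, out of 77 candidates, differed between members. For miR-15a they were miR-25, let-7b and miR-27b, with root mean square distances of 0.152, 0.193 and 0.205 (log2) against an SD of 0.64 for miR-15a itself. For miR-16b they were miR-361, miR-17-5p and let-7g at 0.0894, 0.0997 and 0.109, against an SD of 0.39. For miR-15b they were miR-29c, let-7g and miR-106b at 0.034, 0.084 and 0.108, against 0.48, with 5 of the 7 miR-15b values at the floor. Main levels average in shorter probes that mostly stood at the floor, and they share the divisor of an array. The distances therefore depend also on how many silent probes a miRNA has.

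Markers of blood cells were present in the plasma and differed between arrays. Of 3 erythrocyte miRNAs, miR-451 and miR-486 were detected on all arrays and miR-144 on none, and their summed software signal ran from 46.9 to 75.7 in the pregnant group and from 23.6 to 64.2 in the other. miR-451 stood at 11.2, 25.1, 11.3 and 14.1 in pregnant 1 to 4 and at 5.07, 12.1 and 4.28 in non-pregnant 1, 3 and 4, so that pregnant 2 was highest and pregnant 1 and 3 lay below non-pregnant 3. Of 7 leukocyte miRNAs 1 to 3 were detected per array, led by miR-223, and their sum was 143 to 423 in pregnant and 55.9 to 170 in non-pregnant cows. miR-223 stood at 123, 369, 240 and 357 in pregnant 1 to 4 and at 55.9, 96.5 and 152 in non-pregnant 1, 3 and 4. In miR-223 and miR-142-5p, as in the detected members, pregnant 2, 3 and 4 lay above every non-pregnant cow and pregnant 1 lay among them. Of 5 platelet miRNAs, miR-24-3p and miR-197 were detected on all 7 arrays, miR-126-3p and miR-199a-3p on 1 each and miR-191 on 0. Their sums were 65.0 to 103 against 30.6 to 61.6, with miR-24-3p the largest part on each array. These sums, like the others here, are not scaled between arrays. Within the platelet list, miR-24-3p did not overlap between groups, at 57.0 to 88.7 in pregnant and 23.8 to 52.2 in non-pregnant cows. miR-197 did overlap, at 7.12 to 27.9 against 5.69 to 7.30. For comparison, 8 of 88 unscaled miRNA levels (9.09%) had every pregnant array above every non-pregnant one. That is a share of single miRNAs, and none was taken for sums. The 2 liver miRNAs summed to 0 to 51.2 in pregnant and 3.26 to 21.9 in non-pregnant cows, and 0 of 3 muscle miRNAs were detected on any array. The part of these cell types in the members' values was not tested.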

How the data were processed

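Per the labels' protocols, a kit for serum or plasma gave the RNA, which was labelled with Cy3 for 1-colour arrays. Per the file headers, the authors used Agilent Feature Extraction 11.0.1.1 to read the arrays. The deposited intensity of a spot is background-subtracted within its array and not scaled between arrays. The software's detection and outlier flags are as deposited. The authors also deposited log2 values, which matched the software signal per miRNA plus a constant of 3.32 for 730 of 744 names; what the constant stands for is unknown, and non-detected miRNAs are blank.

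Control spots and outlier spots (558 to 1149 per array) were left out, and 0 spots were saturated. The mean over the spots of each probe was divided by the array's 75th percentile over 57 probes detected on all arrays (442 in pregnant 2, for example), floored at 0.0122, the median over arrays of the lowest detected scaled value, put on the log2 scale and averaged over the probes of a miRNA. The unscaled floor was 8.52. Two-sided limma tests (version 3.58.1, R 4.3.3, eBayes moderation, Benjamini-Hochberg adjustment) were run on 88 miRNAs detected on at least 3 arrays, without covariates, and was tested on simulated data. Agreement used exact permutation of pairings. The number of arrays limits the precision.

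Members, lists and alternatives were chosen with earlier results of these data known. Named miRNAs were the 4 members, listed relatives, and for each member on 5 or more arrays the 3 miRNAs of nearest centred level. Other miRNAs were named as cell markers. Alternatives changed the scaling, background correction, summary, floor, filter, variance model, test and samples. The longest-probe settings, their combinations and the background-subtracted ratios were added after the data were seen. A cow number shared by both groups was not taken to pair animals, because the labels do not say what it stands for. The deviations of same-numbered arrays from their group means correlated at 0.094, 0.646 and -0.20 for numbers 1, 3 and 4. So few values, from arrays that share scaling, cannot decide whether a shared number marks the same animal or a batch.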

Additional observations from a re-analysis of the deposited data

Results flagged for a closer look

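Of 8 sets of values, each over the 4 pregnant cows, that were checked for a cow far from the others, 1 stood out. The scaled level of miR-16a was -6.31 (log2) in pregnant 2 and at the floor of -6.36 in the other 3 pregnant cows, so the whole range of the group was the gap to that cow. Values at the floor have no order, so any single value above it would have been flagged. Of the 66 spots of the 18-base probe, 1 was well above background. Chance flags about 1 in 20 groups that hold no such ties.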

How the results depend on the processing

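With normexp the differences reversed to -0.13 for miR-15a, -0.16 for miR-15b and -0.17 for miR-16b; its offset of 50 exceeds every member signal, the median of all 88 miRNAs was -0.19, and relative to it the members were at 0.06, 0.021 and 0.018. With the 75th percentile over all probes miR-16b was at 0.057, below the median of 0.18 over all miRNAs. The other alternatives on all 7 arrays kept miR-15a, miR-15b and miR-16b positive and not past the threshold, with values up to 1.42, 1.32 and 1.31 with the software signal per miRNA and limma adjusted p from 0.392 to 0.972 over all of them. The difference of miR-16a was 0.014, tested only with no filter (adjusted p = 0.457, limma), and moved to -0.12 (percentile over all probes), 0.24 (floor halved), -0.25 (normexp) and 0.18 (software signal). Unscaled, 10 of 88 miRNAs had an unadjusted p under 0.05. With 1 array left out, the difference was 0.29 to 0.78 for miR-15a, 0.30 to 0.66 for miR-15b, 0.25 to 0.53 for miR-16b and 0 to 0.018 for miR-16a, and 0 miRNAs passed. Unscaled, these ranges were 0.32 to 0.57, 0.33 to 0.56 and 0.29 to 0.49, and miR-15b at 0.56 passed without pregnant 1 (adjusted p = 0.0220, limma; 3 miRNAs past the threshold). With the longest probe they were 0.36 to 1.25, 0.61 to 1.31 and 0.74 to 1.59, with 0 calls. With the longest probe unscaled they were 0.65 to 1.15, 0.67 to 1.12 and 0.86 to 1.46, with 0 to 6 calls, the 6 without pregnant 1. The r of miR-15a and miR-16b ran from 0.960 to 0.986, and that of miR-15b and miR-16b, unscaled, from 0.931 to 0.981.

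With cow number as a replicate block, which drops pregnant 2 because that number has no partner, the differences were 0.29, 0.35 and 0.26 (adjusted p = 0.820, limma) and 0 miRNAs passed; the shared numbers are not known to pair animals. Restricting the test to the 40 miRNAs detected on all 7 arrays left no member, and the deposited table gives miR-16a no group comparison. Signals within a few units of the negative controls limit miR-16a in every cow and all members in non-pregnant 1.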
